A study of Mus musculus with 18 samples.

Results

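The comparison described here is FGF2 against vehicle after 2.5 days of osteoblast induction, and its members are 6 of the 18 libraries of the series. They are the 3 libraries of Ctrl+FGF2 (siCtrl with FGF2) and the 3 of Ctrl+vehicle (siCtrl without FGF2) at d2.5, chosen by their sample titles. All 6 came from O9-1, a wildtype mouse neural crest (NC) cell line that was transfected with a control siRNA (siCtrl) and cultured in osteoblast differentiation medium. The groups differ in whether FGF2 was in the medium, and the dose is not given in the sources used here. Both groups are 1 cell line, and the labels do not say whether replicates were separate cultures, so the p-values measure only the spread between these libraries, which may be technical. Genes and pathways other than the osteogenic and cell cycle genes are described.

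FGF2 is a secreted growth factor that binds FGF receptor tyrosine kinases together with heparan sulfate. Activated receptors signal through the Ras, Raf, MEK and ERK kinases, among other routes, and the pathway induces its own inhibitors, such as Sprouty adaptors and MAP kinase phosphatases. In the NC-derived mesenchyme of the skull, FGF signaling acts on growth and on the choice between progenitor and differentiated states. Bulk RNA-seq reads the RNA of all cells of a culture together.

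The 6 libraries held between 12243859 and 14698525 counts on genes, and levels are given as TMM-normalized CPM, counts scaled to the size of the library. A gene is called when the edgeR quasi-likelihood test of the 9 libraries of d2.5 gave a Benjamini-Hochberg adjusted p under 0.05. The groups of 3 libraries did not overlap for 70.5% of the 13677 tested genes. By the rule above 67.6% of the tested genes were called, 33.5% higher and 34.1% lower with FGF2, and a list of genes has to be read against these shares. Counting only called genes that also changed at least 2-fold, 6.33% of the tested genes were higher and 7.6% lower. Changes are log2 fold changes of Ctrl+FGF2 over Ctrl+vehicle, and their median over all tested genes was 0.00. The SE given with a change is its absolute value divided by the square root of the F statistic of the quasi-likelihood test. The 2 Ctrl+vehicle libraries that differed most were replicates 1 and 2. In Ctrl+FGF2, replicate 2 differed more from replicates 1 and 3 than these did from each other. Levels of many genes are therefore given by library or as a range.

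The cultures were read against fixed cell type markers. Of 12 markers of NC-derived mesenchyme 11 were tested, and their summed level lay between 3073 and 3098 CPM with vehicle and between 2540 and 2598 CPM with FGF2. Of these markers 6 were called lower and 1, Cd44, higher. Prrx1 was the highest, at 1672, 1675 and 1677 CPM with vehicle and 1397, 1365 and 1394 CPM with FGF2. Cd44 rose from 341, 347 and 354 CPM to 518, 504 and 522 CPM. The glial and migratory crest marker Sox10 had no count in any of the 6 libraries, as did Fabp7. The markers thus show mesenchyme, and the label of NC cells comes from the sample titles. Endothelial, leukocyte, skeletal muscle and pluripotent cell markers each summed to at most 4.17 CPM in any library. The summed chondrocyte, smooth muscle and neuron markers were lower with FGF2 and the summed epithelial markers higher, and these sums are given beside the genes they move with. Glial markers also fell, from between 6.25 and 6.63 CPM to between 2.03 and 3.41 CPM. Melanocyte markers, a sum that rests on Mitf, rose from between 18.1 and 18.8 CPM to between 22.4 and 23.9 CPM. Adipocyte markers rose from between 47.1 and 49.2 CPM to between 52.7 and 58.7 CPM, a rise that rests on Fabp4. The other tested adipocyte marker, Pparg, was not called. In these bulk libraries fewer cells of a type and less RNA per cell cannot be told apart.

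**Figure D1:**
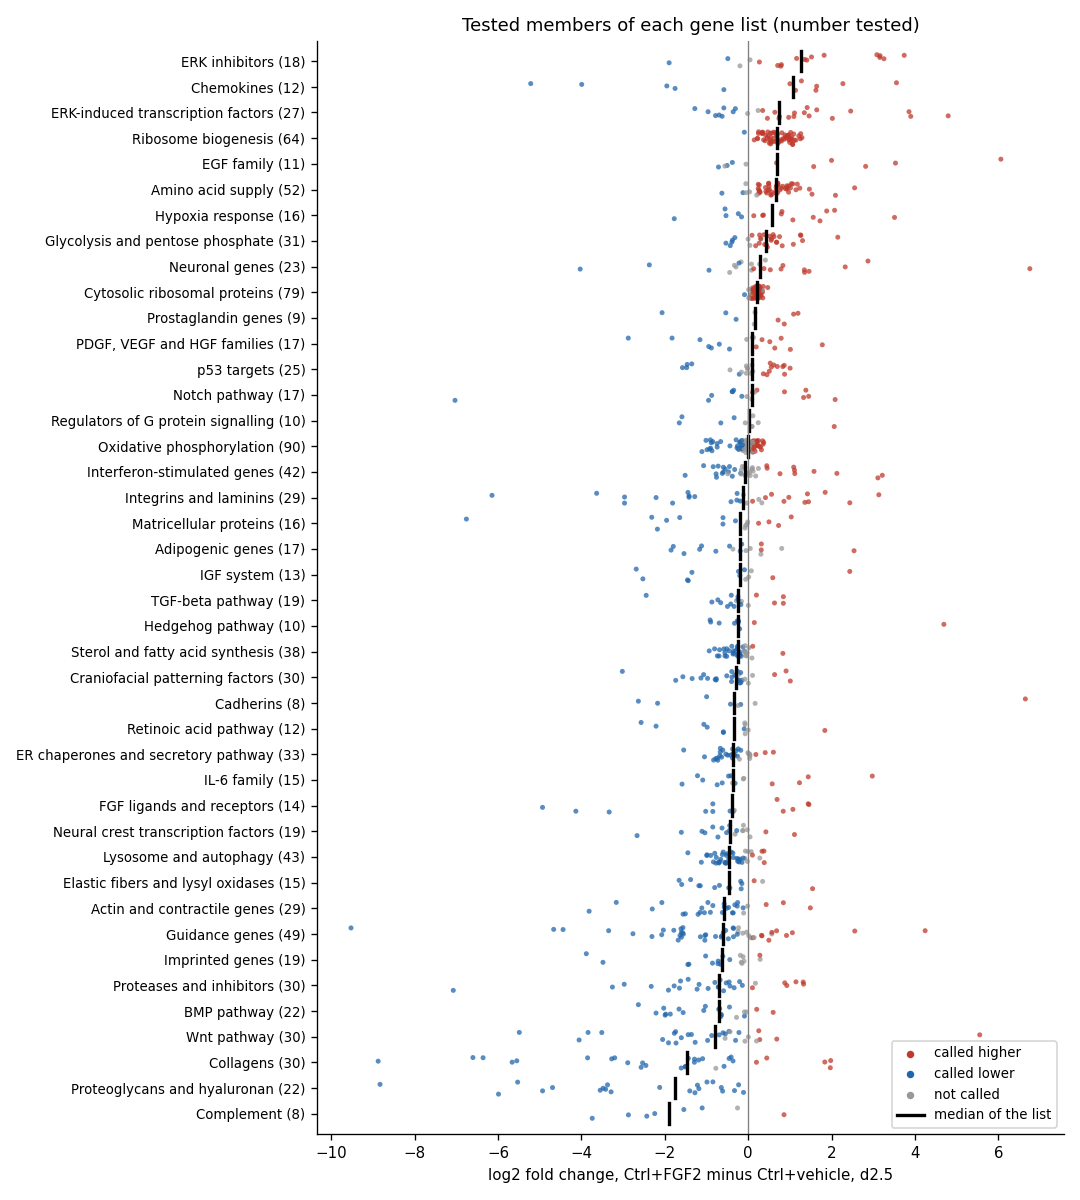
Log2 fold change of Ctrl+FGF2 over Ctrl+vehicle at d2.5 (x axis) for the tested members of the 42 gene lists (y axis, number tested in parentheses). Each point is a gene, colored by its call in the edgeR test, and the black bar is the median of the list. The list medians ran from 1.26 for ERK inhibitors to -1.89 for complement genes.

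FGF2 raised the inhibitors that ERK signaling induces. Of 18 tested ERK inhibitors 14 rose and 2 fell, with a median change of 1.26. Dusp6, a phosphatase that inactivates ERK and lies on chromosome 10 from 99263231 to 99267489 on the plus strand (GRCm38), read 15.7, 15.8 and 16.2 CPM in the Ctrl+vehicle libraries and 133, 137 and 135 CPM in the Ctrl+FGF2 libraries. No library of one group overlapped the other, and the change was 3.09 ± 0.05, or 8.50-fold. Spry4, a Sprouty adaptor that restrains receptor signaling to Ras, went from 4.80, 5.14 and 5.14 CPM to 46.0, 43.1 and 46.1 CPM, a change of 3.16 ± 0.08. Its relative Spry2 read 13.9, 13.3 and 13.2 CPM with vehicle and 47.8, 47.8 and 47.5 CPM with FGF2 (1.82 ± 0.07).

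All 3 Spred adaptors tested also rose, by 1.52 (Spred1), 1.35 (Spred2) and 1.41 (Spred3). Dusp4, a nuclear MAP kinase phosphatase, read 3.69, 3.68 and 3.40 CPM with vehicle and 32.7, 34.7 and 36.0 CPM with FGF2. Dusp10, which acts on JNK and p38 rather than on ERK, went the other way, from 17.8, 22.6 and 18.4 CPM to 3.75, 6.20 and 5.89 CPM, and fell by 1.90 ± 0.14. The other member called lower, Il17rd, fell by 0.49 ± 0.19, and its call was lost when any library other than Ctrl+vehicle replicate 2 was left out (adjusted p up to 0.153 by edgeR) and with DESeq2.

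The transcription factors that ERK induces split by family. Over the whole list 17 of 27 tested factors rose and 8 fell (median 0.74). The 3 Pea3 ETS factors, which carry much of the FGF response to target genes, all rose. Etv4 (chromosome 11 from 101769742 to 101785371 on the minus strand) read 9.01, 9.51 and 9.28 CPM with vehicle and 141, 136 and 139 CPM with FGF2, a rise of 14.9-fold (3.90 ± 0.06). Etv5 went from 12.6, 10.97 and 10.3 CPM to 160.3, 164 and 168 CPM (3.86 ± 0.06), and Etv1 changed by 1.65. Egr3, an early growth response factor, was at 1.48, 1.11 and 1.16 CPM with vehicle and at 34.2, 34.1 and 36.7 CPM with FGF2, 27.8-fold higher.

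Among the 9 AP-1 factors 4 rose and 3 fell. Fosl1, which lasts longer after stimulation than Fos, rose from 16.5, 19.4 and 17.1 CPM to 92.0, 103 and 97.8 CPM (2.46 ± 0.07). Fos itself was at 3.10, 4.03 and 3.15 CPM with vehicle and at 1.58, 1.32 and 1.35 CPM with FGF2, and fell by 1.28 ± 0.22. Junb, an AP-1 partner, read 72.4, 96.7 and 86.5 CPM and 44.9, 44.7 and 41.9 CPM and fell by 0.96 ± 0.07. Klf4, a Krüppel-like factor, rose from a mean of 35.8 to 77.1 CPM.

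The receptors of FGF2 changed in opposite directions. Fgfr1 (chromosome 8 from 25513654 to 25575718 on the plus strand) read 176, 150.2 and 159 CPM with vehicle and 266, 257 and 262 CPM with FGF2, a rise of 0.69 ± 0.04. Fgfr2 (chromosome 7 from 130162451 to 133123350 on the minus strand) read 329.7, 306 and 309.5 CPM with vehicle and 33.1, 29.4 and 31.2 CPM with FGF2. It was thus 10.1-fold lower, with no overlap of libraries, and its edgeR adjusted p was 2.92e-31. Fgfr3 went from 28.5, 32.4 and 30.7 CPM to 1.28, 1.01 and 0.709 CPM, and fell by 4.93 ± 0.14. Of the 6 tested receptors and adaptors of the family, 1 rose and 5 fell.

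Of the FGF ligands 5 of 22 passed the filter on low counts, and 4 of these rose. Fgf7 and Fgf10, mesenchymal ligands that signal mainly to the epithelial form of Fgfr2, were among them. Fgf7 read 103, 97.3 and 101 CPM with vehicle and 203, 216 and 214 CPM with FGF2 (1.07 ± 0.04), and Fgf10 read 32.4, 32.6 and 31.5 CPM and 87.7, 90.9 and 86.6 CPM (1.46 ± 0.05). Sulf1, a sulfatase that trims the heparan sulfate needed for FGF binding, was at 9.60, 9.93 and 12.4 CPM with vehicle and at 0.601, 0.310 and 0.851 CPM with FGF2. In the whole FGF list of 14 tested genes 5 rose and 8 fell, with a median of -0.39.

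**Figure D2:**
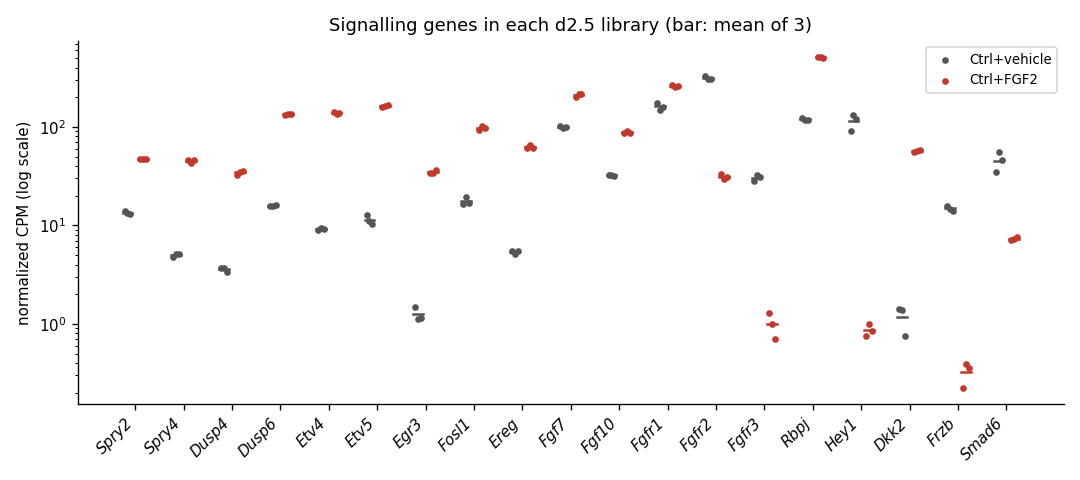
Normalized CPM (log scale) of signaling genes in each of the 3 Ctrl+vehicle (grey) and 3 Ctrl+FGF2 (red) libraries at d2.5, with bars at the group means. Fgfr1 was between 150 and 176 CPM with vehicle and between 257 and 266 CPM with FGF2, while Fgfr2 went from at least 306 to at most 33.1 CPM.

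Most tested ligands of the EGF family rose, and their tested receptors fell. Of 8 tested ligands 6 rose and none fell, and the 3 tested receptor and sheddase genes fell. Ereg, which encodes epiregulin, read 5.54, 5.14 and 5.55 CPM with vehicle and 61.1, 65.5 and 61.5 CPM with FGF2, 11.6-fold higher (3.53 ± 0.08). Areg, its neighbor on chromosome 5 and the gene of amphiregulin, was at 0.148, 0.139 and 0.331 CPM and 12.99, 13.3 and 15.7 CPM. A ligand near 0 with vehicle, as Areg was, passes the filter on low counts only if it is high with FGF2. Such a ligand can only be called higher, which limits the count of ligands that rose. The receptor gene Erbb3 fell by 0.71 ± 0.16 and Adam17, the protease that releases EGF ligands from the cell surface, by 0.50 ± 0.04. Egfr itself did not pass the filter, with 28 counts over the 6 libraries.

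Other growth factor families were mixed. In the PDGF, VEGF and HGF families 7 of 17 tested genes rose and 7 fell, and the median of 0.10 ranged from -0.06 to 0.19 when 1 library was left out, below 0 without Ctrl+vehicle replicate 3 or without Ctrl+FGF2 replicate 2 or 3. Vegfa, an angiogenic ligand, read 86.4, 78.8 and 84.7 CPM with vehicle and 143, 146 and 144 CPM with FGF2. Angpt1, a ligand of the endothelial receptor Tie2, went from 31.2, 28.4 and 29.4 CPM to 8.56, 8.61 and 7.94 CPM, and its antagonist Angpt2 from 5.54, 6.39 and 5.30 CPM to 9.99, 11.7 and 13.2 CPM. The PDGF receptors of mesenchymal cells both fell, Pdgfra by 0.45 ± 0.04 and Pdgfrb by 0.88 ± 0.04.

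In the IGF system 2 of 13 tested genes rose and 8 fell (median -0.20). Igf1 read 7.53, 7.22 and 5.88 CPM with vehicle and 0.826, 1.40 and 0.993 CPM with FGF2. Irs1, which links the IGF and insulin receptors to their kinases, fell by 2.52 ± 0.08, from a mean of 50.1 to 8.72 CPM. The stanniocalcin Stc2, which holds back release of IGFs, rose from 6.57, 6.39 and 6.13 CPM to 32.7, 32.3 and 38.5 CPM.

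IL-6 family genes were more often lower (8 of 15) than higher (4), with a median of -0.37. The ligand Lif went from 1.40, 0.903 and 1.16 CPM to 8.64, 9.46 and 9.29 CPM (2.98 ± 0.19), whereas its receptor Lifr read 116, 129.8 and 126 CPM with vehicle and 57.8, 50.2 and 52.3 CPM with FGF2. Osmr, the receptor chain for oncostatin M, fell by 1.59 ± 0.06. The 12 tested chemokine genes were all called, 7 higher and 5 lower, against 67.6% of all tested genes called. Their median of 1.07 became -0.59 when only genes with at least 10 counts in every library were tested. Ccl2, which draws monocytes, read 0.960, 0.556 and 0.746 CPM with vehicle and 9.24, 9.46 and 8.16 CPM with FGF2. Cxcl12, a stromal ligand that holds progenitor cells in place, read 33.8, 32.8 and 31.6 CPM and 10.2, 8.69 and 10.2 CPM and fell by 1.75 ± 0.08.

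Of 8 tested complement genes 6 fell and 1 rose (median -1.89). Serping1, the inhibitor of the C1 proteases, read 49.3, 43.1 and 43.9 CPM with vehicle and 6.23, 5.74 and 6.60 CPM with FGF2. The classical pathway protease genes C1s1 and C1ra fell by 3.74 and 2.24, while C3 was not called, with 3.40, 2.29 and 3.07 CPM against 2.70, 1.94 and 2.62 CPM. Interferon-stimulated genes gave 10 higher and 15 lower of 42 tested, and 59.5% of them were called, less than the 67.6% of all tested genes. Of the rises 7 reached 2-fold, all in antiviral effectors, and of the falls 2 did. Single interferon-stimulated genes thus went both ways. Ifi203 rose from a mean of 41.2 to 123 CPM, and Gbp2, a guanylate-binding protein, fell by 1.51 ± 0.12.

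Genes of the Wnt pathway were mostly lower. Of 30 tested members 21 fell and 4 rose, with a median of -0.79. Axin2, a target and feedback inhibitor of Wnt and β-catenin signaling, was low in all libraries, with 1.92, 1.60 and 1.74 CPM with vehicle and 0.451, 0.698 and 0.426 CPM with FGF2. It fell by 1.73 ± 0.32, and another feedback gene, the ubiquitin ligase Znrf3, rose by 0.69 ± 0.10. Of 13 tested receptor genes 10 fell, led by Fzd1 (-2.05) and Lgr4 (-1.91).

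The secreted Wnt antagonists did not move together. Of 7 tested antagonists 6 fell, among them Frzb, which read 15.9, 14.8 and 14.0 CPM with vehicle and 0.225, 0.388 and 0.355 CPM with FGF2, and Wif1, which fell by 3.84 ± 0.27. Dkk2 (chromosome 3 from 132085292 to 132180304 on the plus strand), which blocks the Lrp co-receptors, was the exception. It stood at 1.40, 1.39 and 0.746 CPM in the Ctrl+vehicle libraries and at 55.4, 56.8 and 58.2 CPM in the Ctrl+FGF2 libraries, 47.0-fold higher (5.55 ± 0.12). Wnt5a, a ligand of the non-canonical pathway, was not called (7.39, 5.97 and 7.79 CPM against 8.19, 6.75 and 9.15 CPM).

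All 8 tested targets and feedback genes of BMP signaling fell (median -1.52), against 34.1% of all tested genes. Smad6, an inhibitory Smad, read 34.6, 55.4 and 46.4 CPM with vehicle and 7.06, 7.29 and 7.66 CPM with FGF2. Id2, a helix-loop-helix inhibitor that BMP induces, read 49.0, 76.5 and 61.5 CPM and 13.4, 12.5 and 14.6 CPM and fell by 2.21 ± 0.11. Id1 ranged from 54.4 to 88.5 CPM among the Ctrl+vehicle libraries and from 50.3 to 56.6 CPM with FGF2, so that its groups overlapped, and it fell by 0.45 ± 0.10. For each of these 3 genes Ctrl+vehicle replicate 2 was the highest and replicate 1 the lowest of the vehicle group.

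Among the other BMP genes, all 3 tested receptors fell, and of 4 tested ligands 2 fell and 1 rose. Gdf11, a ligand of the same superfamily, read 56.6, 64.3 and 61.2 CPM with vehicle and 29.6, 30.6 and 29.4 CPM with FGF2, and Bmp8a fell by 1.87 ± 0.32. Bmp2 rose by 0.60 ± 0.12, and Bmp4 was not called (2.73, 2.08 and 2.82 CPM against 1.95, 1.63 and 2.62 CPM). Of 7 tested secreted antagonists 4 fell and 1 rose (median -0.66). Chrdl1 and Fst, the follistatin gene, fell by 2.02 ± 0.14 and 1.66 ± 0.11, whereas Grem1 was at 1152, 1093 and 1131 CPM with vehicle and at 1285, 1290.1 and 1318 CPM with FGF2, a rise of 0.21 ± 0.03. Over the whole pathway 2 of 22 tested genes rose and 17 fell (median -0.69).

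In the TGF-β pathway 4 of 19 tested genes rose and 11 fell (median -0.24). Tgfbi, a matrix protein named for its induction by TGF-β, read 1551, 1664 and 1598 CPM with vehicle and 300.5, 288 and 295 CPM with FGF2 and fell by 2.45 ± 0.03. Ltbp1, which anchors latent TGF-β in the matrix, rose from 609, 596 and 594 CPM to 1079, 1058 and 1095 CPM. The ligand Tgfb3 fell by 0.87 ± 0.06, and the co-receptor Tgfbr3 rose by 0.85 ± 0.06.

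The 10 tested Hedgehog genes were all called, 2 higher and 8 lower (median -0.25), against 67.6% of all tested genes called. The groups of libraries did not overlap for 7 of the 10, near the 70.5% of all tested genes, and 1 member passed 2-fold. Hhip, a decoy receptor that Hedgehog signaling normally induces, read 0.148, 0.417 and 0.331 CPM with vehicle and 7.66, 8.14 and 8.23 CPM with FGF2. Ptch1, the receptor and a target, fell by 0.23 ± 0.06. The target Gli1 was at 1.55, 2.01 and 1.08 CPM with vehicle and at 1.13, 0.775 and 0.993 CPM with FGF2, groups that overlapped. Its edgeR adjusted p of 0.0433 went above 0.05 under 8 of the 13 alternatives that gave a value, among them DESeq2 (0.148) and leaving out Ctrl+vehicle replicate 2 (0.262).

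Notch genes went both ways, with 7 of 17 tested genes higher and 7 lower. Their median of 0.09 became 0.022 without Ctrl+FGF2 replicate 1. Hey1 (chromosome 3 from 8663359 to 8667256 on the minus strand), a repressor induced by Notch and also by BMP, read 91.5, 132 and 120.5 CPM in the Ctrl+vehicle libraries and 0.751, 1.01 and 0.851 CPM in the Ctrl+FGF2 libraries. The level was 131-fold lower with FGF2, a fall of 7.03 ± 0.17 on the log2 scale. Hes1, another Notch target, rose from 3.99, 6.46 and 5.14 CPM to 15.8, 14.0 and 13.1 CPM. Rbpj, the DNA-binding factor of the pathway, read 124, 117 and 118 CPM and 511, 511 and 503 CPM, a rise of 2.09 ± 0.03.

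Of 12 tested retinoic acid genes 7 fell and 1 rose (median -0.34). The enzymes of retinal metabolism Dhrs3 and Aldh1a1 fell by 2.57 ± 0.26 and 2.21 ± 0.24. The member that rose was Crabp1, a cytosolic binding protein of retinoic acid, from 118, 129 and 119.5 CPM to 442, 436 and 436 CPM.

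Transcription factors of the NC were lower or not called for the most part. Of 19 tested, 2 rose and 11 fell (median -0.44). Twist1, a mesenchymal bHLH factor, was not called and read 58.7, 61.9 and 61.1 CPM with vehicle and 57.7, 61.7 and 59.9 CPM with FGF2. Its paralog Twist2 rose from 8.49, 8.54 and 7.54 CPM to 17.8, 18.1 and 17.4 CPM, and Sox2 from 21.7, 23.5 and 22.9 CPM to 31.3, 29.1 and 31.2 CPM. Sox9, needed for cartilage, read 172, 175 and 181 CPM and 90.0, 82.0 and 85.1 CPM and fell by 1.04 ± 0.04. Snai1 fell by 1.60 ± 0.07 and Msx2, a homeobox gene downstream of BMP, by 2.66 ± 0.24. Tfap2a was not called (change -0.13, edgeR adjusted p = 0.0545), and it passed the threshold under 8 of the 14 alternatives. Of 30 tested craniofacial patterning factors 22 fell and 3 rose (median -0.29), with Irx3 (-1.57) and Irx5 (-1.34) among the falls and Nr2f2 (1.01) and Osr1 (0.91) among the rises.

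Among the 42 lists the collagens lost the most summed level, from 53862 to 17025 CPM over 30 tested genes, and 24 of them fell while 5 rose (median -1.47). Col1a1 (chromosome 11 from 94936224 to 94953042 on the plus strand) and Col1a2, which encode the chains of type I collagen, read 13684, 13484 and 13493 CPM and 18915, 18903 and 18803 CPM with vehicle. With FGF2 they read 2411, 2284 and 2339 CPM and 6262, 6178 and 6175 CPM. Col1a1 fell by 2.53 ± 0.03 and Col1a2 fell by 1.60 ± 0.02. Col3a1, the chain of the fibrillar type III collagen, read 4680.0, 4154 and 4355 CPM and 811, 799.7 and 799 CPM. Col18a1, a basement membrane collagen, rose from 137, 122 and 125 CPM to 458, 463 and 453 CPM and Col8a1, of a network-forming collagen, from 37.9, 26.8 and 32.5 CPM to 128, 121 and 131 CPM.

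Cartilage collagens fell further. Col2a1, the main collagen of cartilage, read 616, 389.9 and 475 CPM with vehicle and 1.35, 1.09 and 0.709 CPM with FGF2, 469-fold lower. Col10a1, of hypertrophic cartilage, read 45.2, 40.5 and 39.9 CPM and 0.901, 0.853 and 0.709 CPM. Of the 6 chondrocyte markers 5 were tested and 5 fell, none was at 0 in all libraries, and their summed level went from between 672 and 938 CPM to between 49.5 and 55.2 CPM. Their part in the fall of the other matrix genes was not tested.

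All 22 tested genes of proteoglycans and hyaluronan fell (median -1.76). The small leucine-rich proteoglycans, which bind and space collagen fibrils, had a median of -4.12 over 10 genes. Fmod (chromosome 1 from 134037254 to 134048277 on the plus strand) read 161, 165 and 161 CPM with vehicle and 0.526, 0.310 and 0.213 CPM with FGF2, 455-fold lower. Ogn read 723, 612 and 678 CPM and 22.2, 22.2 and 21.6 CPM, and Aspn read 827, 679.9 and 743 CPM and 14.0, 9.85 and 11.5 CPM. Has2, the main hyaluronan synthase of mesenchyme, fell by 3.29 ± 0.13.

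**Figure D3:**
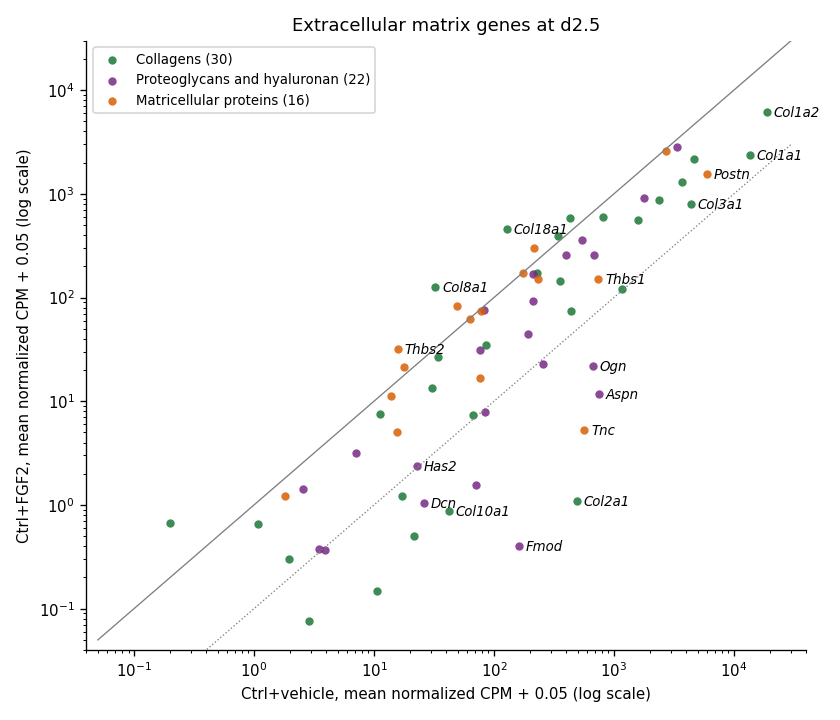
Mean normalized CPM plus 0.05 of each tested collagen, proteoglycan and matricellular gene with vehicle (x axis) and with FGF2 (y axis), both on a log scale. The solid line marks equal levels and the dotted line a 10-fold fall. Col2a1, Fmod, Tnc, Aspn and Ogn lie below the dotted line, and Col18a1 and Col8a1 lie above the solid one.

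Matricellular genes were less uniform, with 4 of 16 tested higher and 8 lower. Their median of -0.19 was -0.117 without Ctrl+vehicle replicate 1 and -0.285 without Ctrl+vehicle replicate 2. Tnc, the gene of tenascin C, was almost the same in the 3 Ctrl+vehicle libraries at 566, 569.9 and 567 CPM. It read 6.01, 4.89 and 4.82 CPM with FGF2, 108-fold lower (edgeR adjusted p = 3.1e-37). Postn, the gene of periostin, went from 6245, 5767 and 5965 CPM to 1539, 1544 and 1551 CPM, and Thbs1 fell by 2.31 ± 0.04, whereas Thbs2 rose by 1.03 ± 0.09. Tnn, the gene of tenascin N, is on no list and fell by 3.93 ± 0.04, from 3226, 3158 and 3162 CPM to 226, 189.9 and 211 CPM.

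Genes that build and remodel the matrix were mostly lower, but the lysyl oxidases that crosslink it were split. Of 15 tested genes of elastic fibers and lysyl oxidases 12 fell and 2 rose (median -0.47). Of the 5 lysyl oxidases 3 fell and 2 rose (median -0.15), with Lox down by 1.38 ± 0.03 and Loxl3 up from 162, 170.4 and 166 CPM to 477, 484 and 494 CPM. In the 13 tested genes of collagen folding and export none rose and 12 fell, among them P3h1, a prolyl 3-hydroxylase (-1.55), and Fkbp10 (-1.05). Of 30 tested proteases and inhibitors 23 fell and 6 rose (median -0.69). The collagenase gene Mmp13 read 69.7, 48.1 and 56.7 CPM with vehicle and 0.375, 0.388 and 0.497 CPM with FGF2, and Mmp11 read 242, 300.4 and 277 CPM and 28.5, 28.8 and 28.5 CPM. Of the 3 tested genes of plasminogen activation 2 rose and 1 fell. Plaur, the urokinase receptor, rose from 15.2, 18.5 and 15.4 CPM to 40.3, 42.0 and 41.1 CPM.

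Integrins and laminins, which tie cells to the matrix, were split, with 11 of 29 tested higher and 14 lower. Their median of -0.11 became 0.03 without Ctrl+vehicle replicate 1. Itga11, a collagen receptor chain of mesenchymal cells, read 40.7, 33.7 and 38.3 CPM with vehicle and 0.676, 0.543 and 0.355 CPM with FGF2. Itga6, a laminin receptor chain, rose from 55.3, 68.1 and 55.7 CPM to 332, 323 and 319 CPM (2.44 ± 0.05), and the collagen receptor chain Itga2 rose from 0.813, 0.625 and 0.497 CPM to 5.03, 6.90 and 5.46 CPM. The laminin chain Lama4 fell by 3.63 ± 0.13. Of 8 tested cadherins 1 rose and 5 fell, with a median of -0.33 that became -0.196 without Ctrl+vehicle replicate 1. Cdh11, the cadherin of mesenchyme and bone, read 185, 207 and 193 CPM with vehicle and 33.0, 30.9 and 30.4 CPM with FGF2. The one that rose was Cdh26, at 0.0739, 0 and 0 CPM and 3.45, 3.80 and 3.19 CPM.

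Contractile genes fell together. Of 29 tested actin and contractile genes 24 fell and 3 rose (median -0.58), and among the 11 of smooth muscle type 9 fell (median -1.15). Acta2, the smooth muscle actin also used by contractile fibroblasts, read 235, 169 and 197 CPM with vehicle and 21.7, 22.6 and 22.8 CPM with FGF2 and fell by 3.16 ± 0.08. Myl9, a myosin light chain, read 13.4, 8.40 and 11.1 CPM and 0.826, 0.620 and 0.851 CPM, and Zyx, the gene of the focal adhesion protein zyxin, rose from 199, 185 and 184 CPM to 335, 343 and 343 CPM. The 5 smooth muscle markers, none of them at 0 in all libraries and 3 of them tested, summed to between 188 and 260 CPM with vehicle and to between 24.9 and 26.0 CPM with FGF2. Acta2 itself is 1 of these markers, and the part of such cells in the result was not tested.

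Promoters of the tested members of all 42 lists were searched for short motifs, and only some of the shares are given. No list was tested for a motif. Windows from 250 bases before to 50 after each start site were taken from RefSeq (GRCm38.p6), and 9451 of 13675 tested gene symbols had at least one. The 12 motifs searched, on both strands and by exact letters, were an AP-1 site (TGANTCA), a cyclic AMP response element (TGACGTCA), an ETS site (CCGGAAGT), an E-box (CACGTG), an Atf4 composite site (TGATGNAA), a sterol response element (TCACNCCAC), a Tead site (GGAATG), a Smad GC-rich element (GGCGCC), a TCF/LEF site (CTTTGAA), a Gli site (GACCACCCA) and, by name, the interferon response element and the CArG box, the binding site of serum response factor. No CArG box, E-box, Atf4 or interferon match can hold another of these motifs whole. A match is a run of letters and no evidence of binding. High shares not taken further include the E-box in 6 of 18 p53 targets (33.3%, against 11.8% of tested genes). Another is the interferon response element in 4 of 10 genes of elastic fibers and lysyl oxidases (40%, against 3.62%).

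The Tead site was present in 12 of 28 contractile genes with a window (42.9%), against 14.2% of tested genes and 16.6% of all genes. The AP-1 site was present in 5 of these 28 (17.9%), against 6.19% and 8.97%. Of the 12 genes with a Tead site 11 fell and 1 was not called. A CArG box was found in the promoters of 6 of 28 contractile genes (21.4%), against 1.56% of tested genes and 1.81% of all 27025 genes with a window. All 6 were called lower with FGF2, and their changes were -1.51 (Acta1), -0.57 (Cnn2), -0.26 (Fhl2), -1.05 (Lima1), -3.81 (Myl9) and -0.58 (Vcl). Fhl2 has boxes at -96 and -31 bases from its start sites, and only that at -31 is shown. The boxes of 4 genes are shown because the box differs in its inner letters between genes that fell, with the box in capitals and 10 bases on each side, on the strand of the gene:
Myl9 (chr2:156775293-156775322, plus strand): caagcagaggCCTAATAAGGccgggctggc
Acta1 (chr8:123894829-123894858, minus strand): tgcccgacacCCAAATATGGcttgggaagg
Vcl (chr14:20929161-20929190, plus strand): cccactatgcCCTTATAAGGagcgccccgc
Fhl2 (chr1:43163973-43164002, minus strand): gcgcgtgtgtCCTTATATGGtcaaatgact

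Guidance genes were mostly lower, 31 of 49 tested, and 10 were higher (median -0.60). Sema6d, a transmembrane semaphorin, read 13.9, 17.2 and 12.8 CPM with vehicle and 0.676, 0.388 and 0.638 CPM with FGF2, whereas Sema7a, a membrane-anchored one, read 0.591, 0.208 and 0.166 CPM and 2.33, 1.71 and 1.84 CPM. Among neuronal genes 11 of 23 tested rose and 4 fell, with a median of 0.28 that became 0.415 without Ctrl+vehicle replicate 1. The glutamate receptor subunit gene Gria1 rose from 0.960, 1.04 and 0.828 CPM to 6.98, 7.44 and 6.67 CPM, and Penk, which encodes the enkephalin precursor, fell from 128, 98.1 and 115 CPM to 6.91, 7.29 and 6.67 CPM. Stmn2, a neuronal tubulin regulator, and Tubb3, a neuronal tubulin, fell by 2.37 ± 0.08 and 0.94 ± 0.09. The 6 neuron markers, of which Elavl3 and Rbfox3 were at 0, summed to between 67.8 and 74.2 CPM with vehicle and to between 20.4 and 24.6 CPM with FGF2 and this sum rests on Stmn2 and Tubb3. Snap25, the third tested marker of neurons, was called higher, at 0.148, 0.139 and 0.249 CPM and 1.13, 0.931 and 0.709 CPM. The 7 epithelial markers, of which Krt5 was at 0, went from between 9.69 and 11.3 CPM to between 26.0 and 27.3 CPM. This sum rests on Krt19, a keratin of simple epithelia, at 5.61, 4.51 and 4.97 CPM and 25.9, 23.7 and 25.5 CPM, while the basal keratin gene Krt14 went the other way, from 4.51, 5.42 and 4.23 CPM to 0.150, 0.310 and 0 CPM. The part of either in these results was not tested.

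Genes of ribosome production rose almost without exception. Of 64 tested genes of ribosome biogenesis 63 rose and 1 fell, against 33.5% higher among all tested genes, with a median of 0.70. Ncl, the gene of nucleolin, read 1137, 1221 and 1184 CPM with vehicle and 2308, 2393 and 2329.9 CPM with FGF2. Nop56, of the snoRNP that methylates rRNA, read 95.1, 104 and 98.6 CPM and 227, 243 and 244 CPM (1.26 ± 0.04), and Dkc1, the pseudouridine synthase, read 60.6, 74.0 and 67.8 CPM and 165, 167 and 165 CPM (1.29 ± 0.05). All 7 genes of RNA polymerase I rose, with a median of 0.46. The member that fell was Rrp1 (-0.09), and its call was lost with no filter on low counts and when either Ctrl+vehicle replicate 1, Ctrl+FGF2 replicate 1 or Ctrl+FGF2 replicate 3 was left out.

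The cytosolic ribosomal proteins themselves changed less. Of 79 tested, 70 rose and 1 fell, with a median of 0.21, and none passed 2-fold. The 1370 tested processed pseudogenes, copies of protein-coding genes, gave 393 higher and 52 lower, and reads shared with their parent genes may count there. The share of them called was 32.5%, less than the 67.6% of all tested genes.

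**Figure D4:**
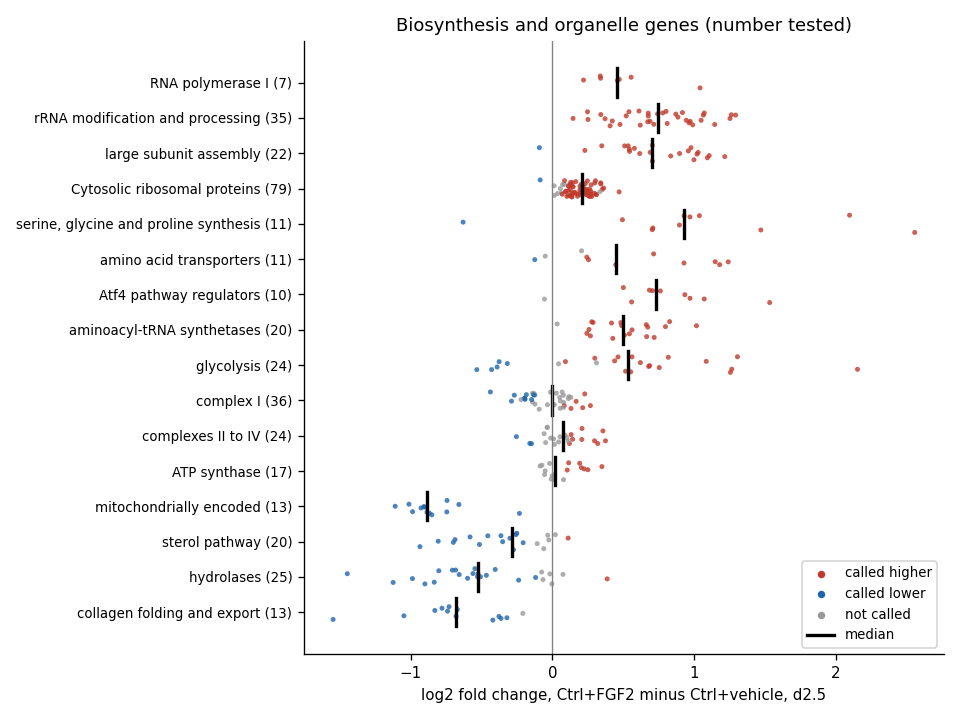
Log2 fold change of Ctrl+FGF2 over Ctrl+vehicle at d2.5 (x axis) for tested genes of biosynthesis and organelles by role (y axis, number tested in parentheses). Points are genes colored by their call and bars are medians. The 35 genes of rRNA modification and processing all rose, and the 13 mitochondrially encoded genes all fell.

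Amino acid supply rose as well, with 46 of 52 tested genes higher and 2 lower (median 0.67). Of 20 aminoacyl-tRNA synthetases, which charge tRNAs, 19 rose (median 0.50). Asns, the asparagine synthetase, read 237, 235 and 235 CPM with vehicle and 369, 402 and 385 CPM with FGF2, and Phgdh, the first enzyme of serine synthesis, read 237, 236 and 241 CPM and 373, 402 and 388 CPM. Cth, the cystathionine gamma-lyase, went from 4.73, 3.61 and 3.81 CPM to 20.7, 27.1 and 23.8 CPM, the largest rise of the list (2.55 ± 0.12). Atf4, the factor that induces many of these genes, rose from 403, 379 and 398 CPM to 633, 650.1 and 641 CPM, and its target Trib3, a pseudokinase, from 63.6, 55.0 and 60.4 CPM to 120.3, 134 and 122 CPM. Pycr1, a proline synthesis enzyme, was the clearest exception and fell by 0.63 ± 0.07.

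The Atf4 composite site was present in promoters of 12 of 38 genes of amino acid supply with a window (31.6%), against 2.67% of tested genes and 4.51% of all genes. Of the 12, 11 rose and Pycr1 fell. Slc7a11 has matches at -66 and -47 bases from its start site, and only that at -66 is shown. The sites below, with the match in capitals on the strand of the gene, hold TGATGNAA on this strand or on the opposite one and are shown because genes with near-identical letters include both risers (Asns, Trib3, Chac1 and Slc7a11) and the one that fell:
Asns (chr6:7693215-7693242, minus strand): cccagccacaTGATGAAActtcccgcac
Trib3 (chr2:152344029-152344056, minus strand): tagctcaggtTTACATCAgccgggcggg
Chac1 (chr2:119351039-119351066, plus strand): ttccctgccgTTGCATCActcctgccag
Slc7a11 (chr3:50443662-50443689, minus strand): ctcatgtggcTGATGCAAacctggagaa
Pycr1 (chr11:120643834-120643861, minus strand): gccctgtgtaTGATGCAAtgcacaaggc

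These 5 were chosen for their match after their values were known, and the changes not yet given were 0.93 for the cystine transporter gene Slc7a11 and 0.56 for Chac1, which degrades glutathione. The 17 of 32 interferon-stimulated genes with an interferon response element (53.1%, against 3.62% of tested genes and 3.99% of all genes) did not share a direction, with 4 higher, 6 lower and 7 not called. The AP-1 site was present in 8 of these 32 promoters, against 6.19% of tested genes.

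Sugar metabolism rose in part. Of 31 tested genes of glycolysis and the pentose phosphate pathway 23 rose and 5 fell (median 0.44). Slc2a1, the glucose transporter Glut1, read 42.3, 38.2 and 44.1 CPM with vehicle and 96.4, 104 and 98.5 CPM with FGF2. Hk2, a hexokinase, rose from 31.6, 31.5 and 32.1 CPM to 73.9, 72.5 and 80.7 CPM and the lactate transporter gene Slc16a1 from 129, 129.7 and 130.0 CPM to 314, 326 and 319 CPM. Ldha, the muscle-type lactate dehydrogenase, rose by 0.69 ± 0.04, while Pfkfb4 and the neuronal enolase gene Eno2 fell by 0.53 ± 0.13 and 0.43 ± 0.08.

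All 16 hypoxia response genes were called, 11 higher and 5 lower (median 0.58), against 67.6% of all tested genes called. Car9, a carbonic anhydrase induced in low oxygen, read 0.369, 0.764 and 0.414 CPM with vehicle and 6.61, 6.75 and 4.97 CPM with FGF2. Pdk1, a pyruvate dehydrogenase kinase, rose by 0.80 ± 0.05. Arnt, the partner of the hypoxia-inducible factors, and P4ha2, a collagen prolyl 4-hydroxylase, fell by 0.53 ± 0.04 and 0.55 ± 0.05.

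Oxidative phosphorylation was divided by genome. Of the 77 nuclear genes 22 rose and 13 fell, with medians of 0.00 for complex I, 0.07 for complexes II to IV and 0.02 for ATP synthase. The shares called were 44.4, 50 and 41.2% in the same order, less than the 67.6% of all tested genes. The 13 mitochondrially encoded genes all fell, with a median of -0.88, and their summed level went from 7823 to 4280 CPM. mt-Nd5, a complex I subunit, read 1107, 742 and 822 CPM with vehicle and 447, 412 and 466 CPM with FGF2. The groups did not overlap, but the vehicle libraries differed among themselves, with replicate 1 the highest. The RNA that was sequenced includes these mitochondrial transcripts.

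Genes of lipid metabolism and of the ER were more often lower than higher. Of 38 tested genes of sterol and fatty acid synthesis 28 fell and 2 rose (median -0.25), and none passed 2-fold. Hmgcs1, a synthase of the sterol pathway, read 855, 810.5 and 844 CPM with vehicle and 487, 474 and 475 CPM with FGF2. Of 33 tested genes of ER chaperones and the secretory pathway 23 fell and 3 rose (median -0.36). Hspa5, the main ER chaperone, was not called (722, 809.9 and 756 CPM against 777, 789 and 793 CPM). Adipogenic genes gave 3 higher and 9 lower of 17 (median -0.19), and 5 fell at least 2-fold. Plin4, of the coat of lipid droplets, read 24.5, 19.2 and 20.05 CPM with vehicle and 7.06, 6.98 and 7.87 CPM with FGF2, and Fabp5, a fatty acid binding protein, fell by 1.12 ± 0.05. The regulator Pparg was not called (20.1, 18.6 and 17.9 CPM against 17.6, 20.01 and 21.0 CPM), and Fabp4 rose by 0.32 ± 0.06.

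Of 43 tested lysosome and autophagy genes 33 fell and 4 rose (median -0.47). Ctsb, a cathepsin, read 803, 806 and 795 CPM with vehicle and 509, 504 and 511 CPM with FGF2, whereas Ctsl, another one, rose from 571, 566 and 572 CPM to 748, 748 and 738 CPM. The membrane protein gene Lamp1 fell by 0.22 ± 0.03 and the autophagy receptor gene Sqstm1 rose by 0.38 ± 0.03. An E-box (CACGTG), the core of the site of the Tfeb family and of Myc, was present in promoters of 12 of 32 genes of the list (37.5%), against 11.8% of tested genes and 8.09% of all genes. Of these 12 genes 8 fell, Ctsl rose and 3 were not called. In the ribosome biogenesis list, which rose, 13 of 57 promoters (22.8%) held the same letters. The ETS site was present in 16 of these 57 (28.1%), against 9.57% of tested genes and 4.31% of all genes. Among genes that changed at least 2-fold, it was in 4.91% of those called higher and 1.23% of those called lower. None of the 15 ERK inhibitors and 18 ERK-induced transcription factors with a window held an ETS site. The following sites, with the box in capitals, show the same core in genes that fell (Ctsd, Gaa and Lamp1) and in the gene that rose (Ctsl):
Ctsd (chr7:142387910-142387935, minus strand): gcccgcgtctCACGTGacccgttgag
Gaa (chr11:119267813-119267838, plus strand): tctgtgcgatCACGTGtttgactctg
Lamp1 (chr8:13159090-13159115, plus strand): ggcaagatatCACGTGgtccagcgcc
Ctsl (chr13:64370741-64370766, minus strand): cgttagaagcCACGTGctgatctaaa

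The remaining lists covered p53 targets, prostaglandins, G protein regulators and imprinted genes. Of 25 tested p53 targets 11 rose and 5 fell, with a median of 0.09 that ranged from 0.048 without Ctrl+vehicle replicate 2 to 0.144 without Ctrl+FGF2 replicate 1. Of the falls 4 reached 2-fold, and of the rises 1 did. Mdm2, the inhibitor of p53, rose by 0.45 ± 0.04, and Perp and Sesn1 fell by 1.57 ± 0.14 and 1.35 ± 0.05. The cell cycle inhibitor gene Cdkn1a fell by 0.21 ± 0.03. In the prostaglandin list 4 of 9 tested genes rose and 3 fell, with a median of 0.16 that became 0.352 without Ctrl+vehicle replicate 1. Ptgs1, a constitutive cyclooxygenase, rose from 107, 108 and 112 CPM to 238, 226 and 229 CPM. Ptgs2, the inducible one, ranged from 91.0 to 151 CPM with vehicle and from 94.5 to 101 CPM with FGF2, groups that overlapped, and its call was lost with DESeq2 (adjusted p = 0.134) and without Ctrl+vehicle replicate 2 (0.230 by edgeR). Among regulators of G protein signalling 1 of 10 rose and 4 fell, and the median of 0.01 ranged from -0.22 without Ctrl+FGF2 replicate 2 to 0.13 without Ctrl+FGF2 replicate 1. Rgs16 was the one that rose, from 12.4, 11.8 and 11.8 CPM to 49.0, 51.5 and 50.5 CPM. Of 19 tested imprinted genes 11 fell and 1 rose (median -0.64). Mest read 36.5, 30.0 and 30.4 CPM with vehicle and 2.03, 2.17 and 2.34 CPM with FGF2, and H19, a non-coding RNA, read 45.5, 17.99 and 29.5 CPM and 2.70, 2.71 and 2.84 CPM, with Ctrl+vehicle replicate 2 the lowest of its group.

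Some of the largest changes lay outside all lists. Hmga2, a chromatin protein of embryonic cells, rose from 276, 334 and 300.0 CPM to 2239, 2260.2 and 2298 CPM (2.90 ± 0.04). Its relative Hmga1 read 38.8, 42.7 and 37.8 CPM and 668, 692 and 679 CPM, 17.1-fold higher, and the near-identical copy Hmga1b read 14.8, 16.2 and 14.5 CPM and 258, 263 and 267 CPM. Reads of these copies may have been split between them, so the level of each is uncertain. Slc5a3, the myo-inositol transporter, rose from 41.7, 34.9 and 37.8 CPM to 692, 662 and 684 CPM. Prkg2, a cGMP-dependent kinase, read 38.8, 35.5 and 40.6 CPM and 434, 453 and 443 CPM, and Il1rl1, the receptor of IL-33, read 15.7, 12.2 and 14.9 CPM and 183, 176 and 182 CPM. The GTPase-activating proteins Arhgap22 and Arhgap6 rose by 4.45 ± 0.12 and 3.67 ± 0.17, and Klhl1, Il18rap and March4 by 4.40 ± 0.10, 3.80 ± 0.11 and 3.54 ± 0.15.

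By mass, the largest rises of mean level were in Spp1 (4291 to 7359.8 CPM), Vim, the vimentin gene (3679 to 5729 CPM), Hmga2, Anxa1, the annexin A1 gene (1335 to 2985 CPM), Ahnak (1315 to 2735 CPM) and Ncl. The falls outside the lists included Crispld2, a secreted protein, from 48.3, 49.2 and 47.4 CPM to 1.13, 1.24 and 1.49 CPM. Kctd12, a subunit of GABA-B receptors, read 36.4, 42.7 and 43.0 CPM with vehicle and 0.751, 1.01 and 0.709 CPM with FGF2. Lrp4, a receptor that binds sclerostin, fell by 3.96 ± 0.13 and the pentraxin gene Ptx3 fell by 4.32 ± 0.12. The same rule named Nrep, Capn6, Tent5a and Gdpd2, which fell by 4.93 ± 0.12, 4.18 ± 0.19, 4.23 ± 0.11 and 3.88 ± 0.14. Among non-coding genes Mir17hg, the host transcript of the miR-17 cluster, rose by 1.13 ± 0.13, AU020206 by 1.56 ± 0.10 and Gm12606 by 1.38 ± 0.05. Dnm3os, an antisense transcript that hosts microRNAs, fell by 1.37 ± 0.10 and Mir22hg by 1.04 ± 0.11. The identifier of Zswim6, which the annotation types as a processed transcript, fell by 1.22 ± 0.08.

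The effect of FGF2 was then set beside that at d5, which was measured in its own 3 Ctrl+FGF2 and 3 Ctrl+vehicle libraries. The labels give each day its own batch, so the day and the batch cannot be told apart. In a fit of all 18 libraries the effect differed between the days for 8643 of 14198 genes (60.9%). Of the 12845 genes tested on both days 4739 were called on both, and 3023 of these had opposite signs. Etv4 rose on both days, by 3.90 at d2.5 and 1.23 at d5, while Dusp6 rose by 3.09 at d2.5 and was not called at d5 (-0.19). Rgs16 changed by 2.07 and 2.08. Col10a1 and Ogn were lower at d2.5 and higher at d5 (0.46 and 0.95). Among the amino acid genes Trib3 and Asns were higher at d2.5 and changed by -3.69 and -2.60 at d5, and Atf4 changed by -1.55.

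**Figure D5:**
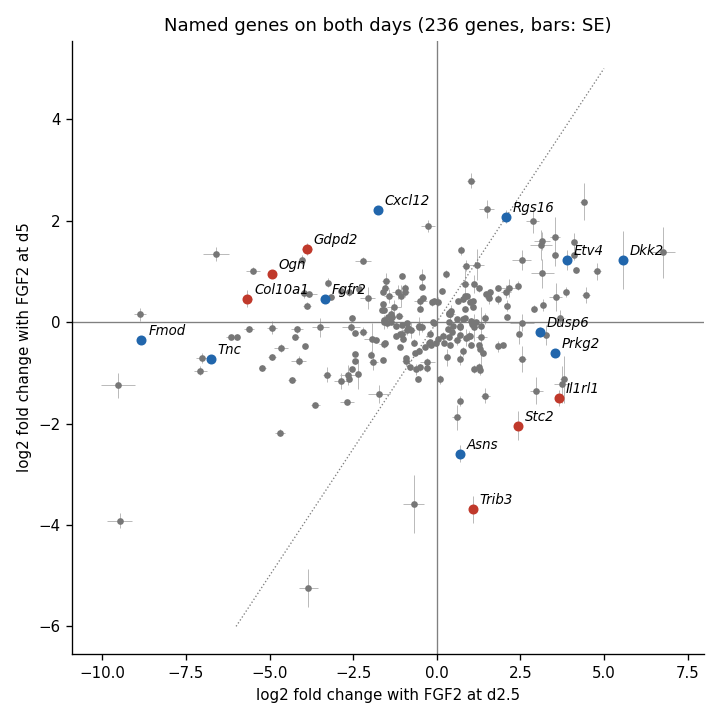
Log2 fold change with FGF2 at d2.5 (x axis) and at d5 (y axis) for the 236 named genes tested on both days, with SE bars. The dotted line marks equal change. Red points are the 6 genes named for called changes of opposite sign and blue points are other genes of the text. Col10a1 and Ogn are negative at d2.5 and positive at d5, and Trib3 and Il1rl1 the reverse.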

How the data were processed

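The authors deposited 1 raw count table per library, in whole-number read counts per gene, and the submitters' processing notes name FastQC, STAR, Picard, featureCounts and mm10. The fourth column of each table, the reverse strand counts, was used, since it held 96.2 to 96.5% of the stranded counts of the 6 libraries. Rows that name no gene, 30.8 to 32.7% of each library, were left out. Counts per gene in the 6 libraries summed to 12243859 to 14698525, which sets the precision for low genes. Of 55335 gene identifiers 55154 were found in GENCODE M21, the source of gene names and GRCm38 positions.

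From the deposited counts, edgeR 4.0.16 (R 4.3.3) was run with the edgeR default expression filter, TMM factors and the quasi-likelihood test on the 9 libraries of d2.5, including the 3 libraries with Yap1 and Wwtr1 knockdown and FGF2, which share in the estimate of the spread. P-values were adjusted by Benjamini-Hochberg over all tested genes. The difference between days was tested as an interaction over all 18 libraries. The code was tested on simulated data. The members of the comparison and the 42 gene lists were chosen with earlier results of these data known. Genes were named by rule. These were preset members of each list, the 2 largest called rises and falls per list with no overlap between groups (mean log2 CPM of at least 1), the 10 largest rises and falls outside the lists (at least 3), the 6 largest changes of mean CPM each way, the 3 largest opposite differences between days each way and the 3 largest lncRNA changes each way. Further list members in the text were chosen after their values were seen.

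Alternatives were other size factors, DESeq2 1.42.0, other filters, unstranded counts, the 6 libraries alone, a block for replicate number, a stricter threshold and leaving out each library.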

Additional observations from a re-analysis of the deposited data

Results flagged for a closer look

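The effect of FGF2 differed between d5 and d2.5 for 8643 of 14198 tested genes (60.9%) by the interaction test of edgeR over all 18 libraries, and the day and the batch cannot be told apart. The largest such differences with opposite signs on the 2 days, given as the log2 fold change at d5 minus that at d2.5, were 6.10 ± 0.24 (SE) for Col10a1, 5.85 ± 0.08 for Ogn and 5.30 ± 0.20 for Gdpd2, which were lower with FGF2 at d2.5 and higher at d5. In the other direction they were -5.18 ± 0.19 for Il1rl1, -4.78 ± 0.26 for Trib3 and -4.50 ± 0.28 for Stc2, which were higher at d2.5 and lower at d5. Groups of 3 libraries are too small for the test of single outlying libraries used for larger groups.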

How the results depend on the processing

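The 4575 genes called higher and 4668 called lower were 4528 and 4700 with RLE factors, 4229 and 4993 with upper-quartile factors, 4072 and 4205 with DESeq2, 4727 and 4882 with no filter, 4207 and 4315 with at least 10 counts in every library, 4505 and 4668 with the 6 libraries alone, 4608 and 4541 with unstranded counts and 3975 and 4097 at an adjusted p under 0.01. With a change of at least 2-fold required they were 866 and 1040. Without 1 library each they ranged from 4322 to 4486 and from 4436 to 4600, and the count of genes whose effect differed by day from 8284 to 8544. Deviations of same-numbered libraries of the 2 groups correlated weakly (0.03, 0.07 and 0.01), and those of differently numbered ones ranged from -0.05 to 0.02. With 3 libraries per group these values cannot settle whether the numbers pair the libraries. The fit with the replicate block called 4540 genes higher and 4640 lower, and 8589 for the difference between days. The log2 fold change of Twist1 went from -0.02 to 0.0073 without Ctrl+FGF2 replicate 1 and ranged from -0.043 to 0.0073 over the fits without 1 library, and that of Pparg went from 0.05 to -0.0029 without Ctrl+FGF2 replicate 3 and ranged from -0.0029 to 0.12, and neither was called in any of these fits. The calls of Gli1, Il17rd, Ptgs2 and Rrp1 were lost as given above, and that of Rpl10 (-0.09) was lost without Ctrl+vehicle replicate 2 (adjusted p = 0.0574 by edgeR). Hspa5 was called higher without that library (0.0111). Over the named genes and all alternatives 3361 values kept direction and call, 21 lost the call and 9 gained it. The cause of these changes was not tested, and changes of genes with a few counts per library are limited by depth.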
